A study of Homo sapiens with 24 samples.

Results

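Peaks of N6-methyladenosine (m6A) that lie in long internal coding exons were examined across human pancreatic differentiation and in ALKBH5 knockout progenitors. Each peak was clipped to the exons of its own gene on the longest protein-coding GENCODE isoform. A peak was kept when the midpoint of its exonic sequence lay in the coding sequence, over 200 nt before the stop codon, in an exon of at least 400 nt that was neither the first nor the last of the transcript. In all, 24344 of the 228472 peaks in the 6 peak lists met this rule and are called members below. In the order hPSC, DE, PP, hILO, WT PP and A5-KO PP, which every row of 6 values below follows, the lists held 4366, 3550, 3639, 3120, 4648 and 5021 members.

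The cells were of MEL1, a human embryonic stem cell line, differentiated step by step from pluripotent stem cells (hPSC) through definitive endoderm (DE) and pancreatic progenitors (PP) to islet-like organoids (hILO). RNA was broken into short fragments, fragments with m6A were pulled down with an antibody (IP), and IP and input RNA were sequenced, with 2 IP and 2 input libraries per population and 24 in all. The 4 stages formed batch 1, in which mRNA was enriched and the SYSY antibody was used. Wild-type progenitors (WT PP) and progenitors lacking the m6A demethylase ALKBH5 (A5-KO PP), made by targeting the first exon of the gene with CRISPR-Cpf1, formed batch 2, in which total RNA and the Millipore antibody were used. All populations come from this line, which in the study carries a GFP reporter at the INS gene; the labels name no other allele or agent, and they do not say whether A5-KO PP is 1 clone. Each list was called on its 4 libraries together, so no value per library was analysed here, no test was possible, and the intervals below (Wilson, 95%) cover counting error within a pooled list only.

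m6A is placed on nascent transcripts by a complex around METTL3 and METTL14, mostly at the motif DRACH (the methylated A stands before C; D means any base but C, R a purine and H any base but G). FTO and ALKBH5 can remove it, and proteins of the YTH family bind it and affect decay, translation and splicing of the RNA. In mammalian mRNA m6A is known to concentrate near stop codons and in unusually long internal exons, and to be sparse close to splice junctions, where exon junction complexes sit. Most internal coding exons are short, so long ones are a minority, common in genes of chromatin, DNA repair, mitosis and the cytoskeleton.

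The sequences below show what members look like at the base level. The first set comes from 5 loci that had a member with at least 50 input reads in every list and the highest median enrichment; for ARHGAP21 the whole hPSC peak is given, and for the other 4 loci its central 150 nt. Capitals mark DRACH sites on the transcribed strand, sequences run 5′ to 3′, and all are reference sequence of GRCh38. PARP8 exon 12 (chr5:50795073-50795222, plus strand) held 6 DRACH sites, ARHGAP21 exon 9 (chr10:24620099-24620398, minus strand) 10, ZFC3H1 exon 2 (chr12:71656962-71657111, minus strand) 7, HAUS6 exon 16 (chr9:19058095-19058244, minus strand) 6 and C5orf15 exon 2 (chr5:133959629-133959778, minus strand) 9. GGAC, a favoured form of the motif, was present in ARHGAP21, ZFC3H1, HAUS6 and C5orf15 and was not found in the window printed for PARP8.
PARP8: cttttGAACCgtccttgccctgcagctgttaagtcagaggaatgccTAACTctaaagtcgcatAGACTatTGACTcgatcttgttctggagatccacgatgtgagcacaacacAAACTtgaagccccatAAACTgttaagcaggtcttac
ARHGAP21: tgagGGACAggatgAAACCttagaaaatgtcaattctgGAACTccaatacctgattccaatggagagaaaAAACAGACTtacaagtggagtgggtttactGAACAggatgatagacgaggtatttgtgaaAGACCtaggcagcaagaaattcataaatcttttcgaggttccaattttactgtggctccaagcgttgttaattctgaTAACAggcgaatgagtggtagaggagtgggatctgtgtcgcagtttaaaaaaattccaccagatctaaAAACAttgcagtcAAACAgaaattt
ZFC3H1: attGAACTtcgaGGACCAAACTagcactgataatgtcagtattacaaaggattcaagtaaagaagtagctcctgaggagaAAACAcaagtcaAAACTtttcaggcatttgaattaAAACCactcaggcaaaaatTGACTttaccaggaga
HAUS6: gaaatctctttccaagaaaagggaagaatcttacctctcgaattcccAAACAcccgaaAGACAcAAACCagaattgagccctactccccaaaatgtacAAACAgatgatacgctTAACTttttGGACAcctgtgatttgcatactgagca
C5orf15: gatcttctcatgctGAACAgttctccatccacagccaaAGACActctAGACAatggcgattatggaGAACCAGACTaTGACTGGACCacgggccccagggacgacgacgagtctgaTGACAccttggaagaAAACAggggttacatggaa

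For contrast, the first 100 nt of the same ARHGAP21 exon (chr10:24621270-24621369, minus strand) held 1 DRACH site and lay in no peak of 5 lists; the WT PP list covered 29 of its bases.
ARHGAP21 exon start: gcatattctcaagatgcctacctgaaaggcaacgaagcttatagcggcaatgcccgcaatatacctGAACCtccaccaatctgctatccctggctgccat
Members listed in 1 of the 4 stages are shown by TNS1 exon 19 of hPSC (chr2:217848475-217848649, minus strand), with 3 GGAC sites, RALGAPA1 exon 34 of DE (chr14:35627231-35627430, minus strand), with 2 DRACH sites, SMG8 exon 4 of PP (chr17:59212793-59212842, plus strand), with none, and KLHL28 exon 2 of hILO (chr14:44945059-44945108, minus strand), with 1. The SMG8 and KLHL28 peaks were 50 nt wide.
TNS1: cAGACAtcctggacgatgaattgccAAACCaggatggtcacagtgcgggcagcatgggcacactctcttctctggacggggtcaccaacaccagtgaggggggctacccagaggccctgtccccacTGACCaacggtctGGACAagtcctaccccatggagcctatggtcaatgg
RALGAPA1: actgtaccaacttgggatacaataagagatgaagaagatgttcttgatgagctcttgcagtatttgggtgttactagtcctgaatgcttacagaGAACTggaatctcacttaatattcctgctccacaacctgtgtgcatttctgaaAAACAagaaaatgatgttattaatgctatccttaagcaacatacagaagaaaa
SMG8: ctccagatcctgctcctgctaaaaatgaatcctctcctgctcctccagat
KLHL28: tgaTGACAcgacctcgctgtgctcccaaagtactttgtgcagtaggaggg
The last pair shows members whose enrichment differed between WT PP and A5-KO PP, TRPM7 exon 26 (chr15:50592407-50592581, minus strand) with 3 DRACH sites and no GGAC, and MYO10 exon 25 (chr5:16700983-16701257, minus strand) with 5 GGAC sites.
TRPM7: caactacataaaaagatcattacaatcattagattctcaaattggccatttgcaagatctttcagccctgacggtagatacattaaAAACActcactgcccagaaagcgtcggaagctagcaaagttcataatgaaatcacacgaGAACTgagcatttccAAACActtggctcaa
MYO10: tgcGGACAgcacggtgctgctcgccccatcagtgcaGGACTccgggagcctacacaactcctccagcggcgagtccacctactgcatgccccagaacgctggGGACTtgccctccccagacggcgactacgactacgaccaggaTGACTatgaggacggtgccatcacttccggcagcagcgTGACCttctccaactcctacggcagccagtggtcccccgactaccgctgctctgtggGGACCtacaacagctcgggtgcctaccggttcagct

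Marker genes of the stages were checked against the labels. POU5F1 and NANOG, markers of pluripotency, had peaks in hPSC and DE and in no later list, but with more input reads in DE (727 and 360) than in hPSC (11 and 121). SOX17, an endoderm gene, had peaks with 12130 input reads in DE, 1181 in WT PP, 2 in A5-KO PP and none elsewhere. PDX1 and NKX6-1, of pancreatic progenitors, had peaks in PP, hILO, WT PP and A5-KO PP, and INS, GCG and SST had peaks in hILO alone. Peaks on ALKBH5 held 289 input reads in the wild-type list of batch 2 and 1 in the knockout list, beside 836 and 592 IP reads. The lists held 29083 to 55219 peaks, of which 67.6% to 79.4% could be placed on a coding isoform.

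Members made up 12.5% to 15.8% of the peaks placed on coding transcripts. The share was 15.4% for hPSC (15.0 to 15.8) and 14.1% for DE (13.7 to 14.5). PP, at 15.8% (15.3 to 16.2), had the highest share and hILO, at 12.5% (12.1 to 12.9), the lowest. This order depended on the peaks kept, since hPSC was highest at p below 1e-10 (16.7%) and with 50 or more input reads (16.5%), and WT PP lowest for peaks in 1 exon (13.0%). Wild-type progenitors of batch 2 stood at 14.1% (13.7 to 14.4) and knockout progenitors at 13.4% (13.1 to 13.8). Members carried 7.23% to 12.4% of all IP reads that fell in peaks.

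The median hPSC member was wider than the median placed peak of that list (225 against 175 nt), and most members lay within single exons. Median exonic width was 225, 200, 200, 225, 300 and 250 nt. Between 77.7% (WT PP) and 88.7% (hPSC) of members touched 1 exon only. The exon that held a member had a median length of 1044 to 1087 nt. Input depth per member differed between lists, with medians of 81.0, 98.0, 98.0, 286, 113 and 73.0 reads. No input read at all was counted for 9.04% of WT PP members and 15.8% of A5-KO PP members, against at most 0.110% in any stage, so enrichment values of batch 2 are given below mainly for members with at least 50 input reads.

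The annotation held 4564 coding exons of this kind in 3575 of 19702 protein-coding genes, and 3391 of them, in 2682 genes, carried a member in at least 1 list. A common core was marked in every population. A member was present in all 6 lists on 1221 exons of 1072 genes. Over the 4 stages, 2897 exons carried a member at some stage and 1375 (47.5%) at all 4. That share rose with exon length, from 37.5% for exons of 400 to under 600 nt through 47.5% and 55.3% to 62.6% for exons of 2000 nt or more. In contrast, 542 exons were marked at exactly 1 stage, with hPSC accounting for 261, DE for 83, PP for 99 and hILO for 99.

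The rule chose exons by length, and the shorter exons of the same genes were used to see how peak frequency varied with length on either side of the limit. To keep genes from entering through the peaks being counted, only genes with a peak near the stop codon or in the 3′ UTR of that list were used. In hPSC a peak midpoint lay in 2.87% of internal coding exons under 200 nt, in 9.84% of those of 200 to under 400 nt, and in 58.3%, 76.8%, 89.5% and 92.4% of those from 400, 600, 1000 and 2000 nt. Longer exons also give a peak more room, so densities and covered bases are given as well.

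Of exons of 400 nt or more, 72.7%, 63.2%, 66.1%, 59.1%, 74.4% and 74.1% held a peak. Peak density there was 1.44, 1.18, 1.34, 1.06, 1.42 and 1.49 peaks per kb of exon. Exons under 200 nt held 0.260, 0.272, 0.296, 0.393, 0.317 and 0.423 peaks per kb in the same lists. Density on long exons was thus 2.71 times (hILO) to 5.55 times (hPSC) that on short ones. The ratio was smallest in hILO, where long exons held the fewest peaks per kb and short exons the most of the 4 stages. For peaks in 1 exon it was smallest in A5-KO PP, at 6.02 against 6.51 in hILO. Over all peaks the ratio was 3.51 in A5-KO PP, but 4.26 there with at least 50 input reads, above the 4.01 of DE.

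The same difference was present in covered bases, a measure that does not depend on where a midpoint falls. Peaks covered 40.3%, 29.3%, 31.2%, 32.6%, 53.2% and 46.7% of the bases of long internal exons. In exons under 200 nt they covered 3.58% to 6.70%. At the limit of the rule the change was gradual: in hPSC 33.2% of exons of 350 to under 400 nt held a peak and 43.2% of those of 400 to under 450 nt. In A5-KO PP the corresponding shares were 39.7% and 51.5%, and in hILO 25.4% and 31.5%.

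**Figure D1:**
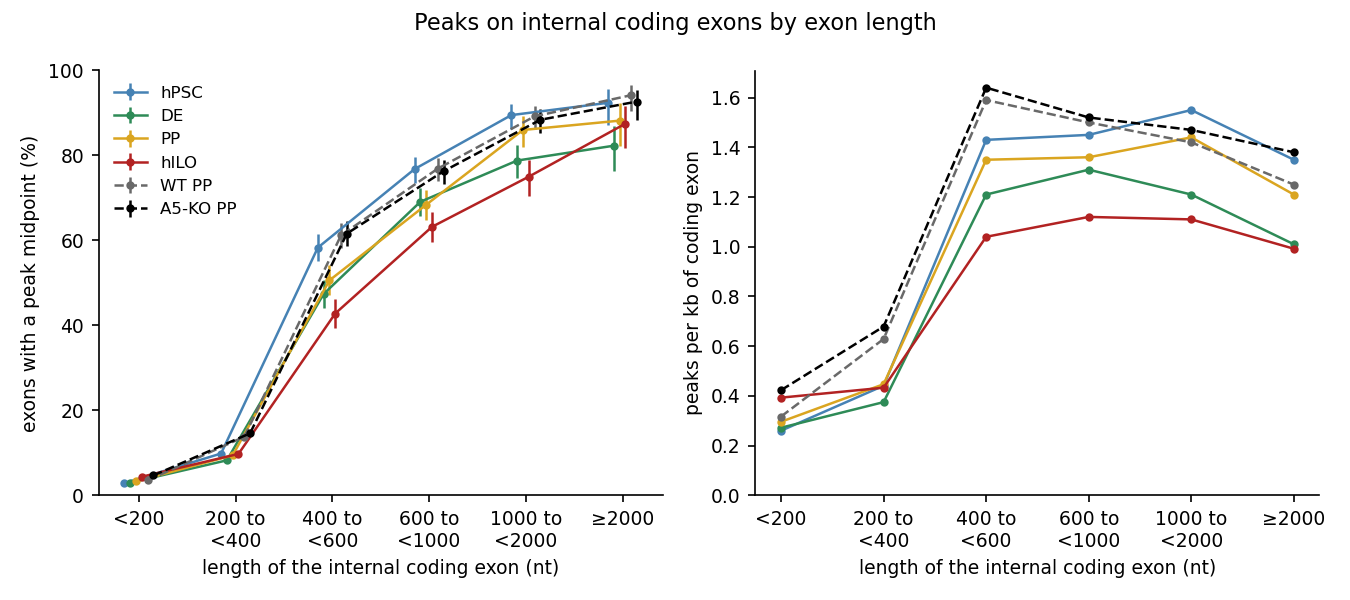
Left, percent of internal coding exons that held a peak midpoint, and right, peaks per kb of coding exon, by exon length in nt, for each of the 6 lists (solid, batch 1; dashed, batch 2; bars, Wilson 95% intervals). In hPSC the share rises from 2.87% under 200 nt to 92.4% at 2000 nt or more, while density reaches 1.44 per kb over exons of 400 nt or more.

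Some long exons carried several separate peaks, and their share rose with exon length. Of all exons of 400 nt or more that held a member, 35.6% (hILO) to 42.3% (PP) held 2 or more. The share was 8.08% (hILO) to 17.0% (PP) at 400 to under 600 nt and 86.3% (hILO) to 92.5% (hPSC) at 2000 nt or more. The most in a single exon was 13 in hPSC and DE and 29 in A5-KO PP, the latter on titin. Members were concentrated on a modest number of genes, since genes with 5 or more held 22.9% (hILO) to 31.6% (A5-KO PP) of members, while 49.3% to 57.2% of genes had 1.

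Within exons, members did not reach the ends evenly. In exons of at least 1000 nt, the first 25 nt from the 5′ end had 7.28%, 6.21%, 9.57%, 10.2%, 19.7% and 20.0% of their bases under peaks. The stretch 300 to 325 nt from the 5′ end had 55.6%, 36.1%, 39.8%, 40.2%, 65.9% and 59.7%. Coverage over whole exons was 42.1%, 28.6%, 32.3%, 35.8%, 56.9% and 48.3%. The 5′ end was therefore covered less than the interior in every list.

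The 3′ end of the same exons was covered more than the 5′ end. The last 25 nt had 24.9%, 23.9%, 29.0%, 26.2%, 48.9% and 46.1% of their bases under peaks. Counted from the nearest end, exons of 400 nt or more in genes used for hPSC held 20.5 DRACH sites per kb within 50 nt of an end, 19.1 at 200 to 300 nt and 21.6 from 500 nt on. GGAC sites numbered 5.26, 5.43 and 4.12 per kb at the same distances. The motif was not counted for each end apart.

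The distance of peak midpoints from the nearest exon end gave a less uniform picture. Midpoints were 4.08 times as dense at 200 to 300 nt as within 50 nt in hPSC and 1.24 times in PP, the lowest value. Among peaks of at most 150 nt the ratio was 1.55, 0.828, 0.533, 0.913, 0.570 and 0.496, so for narrow peaks it lay below 1 in every list except hPSC. Among peaks in 1 exon it was 3.15 to 10.8. The midpoint ratio thus varied with peak width and with the peaks that span a junction, whereas base cover at the 5′ end was low in every list.

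**Figure D2:**
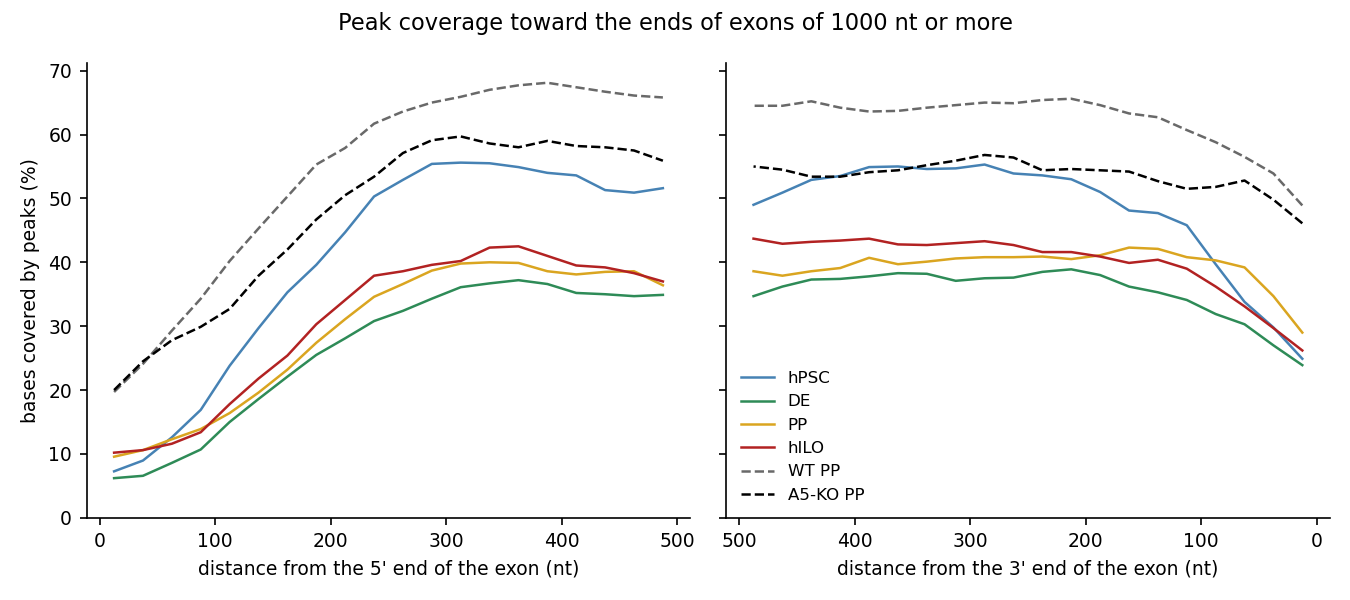
Percent of bases covered by peaks against distance in nt from the 5′ end (left) and the 3′ end (right) of internal coding exons of 1000 nt or more, 1 line per list. Cover at the 5′ end starts at 6.21% to 20.0% and rises with distance, while at the 3′ end it ends at 23.9% to 48.9%.

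DRACH sites were denser inside members than elsewhere in the same exons. In hPSC, members held 24.6 sites per kb and the parts of the same exons outside all peaks 18.8, a ratio of 1.31. The ratio was 1.32 in DE, PP, hILO and A5-KO PP and 1.30 in WT PP. On the opposite strand, searched as a control, it was 0.873 to 0.969, below 1 in every list. GC content was lower inside members, at 50.8%, 49.4%, 48.1%, 48.4%, 49.9% and 48.8%, than outside, at 52.5%, 52.1%, 51.8%, 51.5%, 53.5% and 53.4%, and the part of composition in the motif ratios was not tested.

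GGAC sites, which form part of the DRACH sites when A, C or T follows, were 1.53, 1.52, 1.38, 1.34, 1.36 and 1.29 times as dense inside members as outside. In non-overlapping windows of 100 nt, 44.1% of the windows wholly inside hPSC members held GGAC, against 28.7% of the windows of the same exons outside peaks. For A5-KO PP these were 39.2% and 30.6%. The A of GGAC fell on the second codon position for 57.1%, 56.1%, 55.6%, 54.9%, 56.7% and 54.7% of sites inside members and 58.3%, 56.3%, 56.3%, 56.0%, 59.8% and 60.5% outside. The shares were close in the 4 stages, and the gap was widest in A5-KO PP. DRACH was common everywhere, in 92.8% of windows inside and 81.8% outside in hPSC.

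Enrichment is the log2 ratio of IP to input with the authors' GC offset. Lists were normalised separately, so a difference between lists is given below only as a description and, for shared pairs, beside the same over all peaks. Members had median log2 values of 1.77, 1.74, 1.60, 1.55, 3.62 and 3.99. Peaks of exons under 200 nt had medians of 1.58, 1.59, 1.62, 1.45, 3.64 and 4.27. Against these short-exon peaks, members were thus higher by 0.19 in hPSC and lower by 0.28 in A5-KO PP. Peaks within 200 nt of the stop codon had medians of 1.77, 1.76, 1.67, 1.54, 3.72 and 4.19. All placed peaks had 1.73, 1.71, 1.62, 1.52, 3.62 and 4.14. In the stages the members' medians lay close to both. Restricted to 50 or more input reads, the members' medians were 1.75, 1.69, 1.54, 1.51, 3.52 and 3.72. Short-exon peaks then had 1.51, 1.53, 1.56, 1.42, 3.54 and 3.62, and the lower value of members in A5-KO PP turned into a higher one.

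The difference from short-exon peaks also varied with GC content. Among peaks with 50 or more input reads, at 35% to 40% GC, members had a median log2 enrichment of 1.90 in hPSC against 1.55 for short-exon peaks, and 4.25 in WT PP against 3.63. At 60% to 65% GC the medians were 1.59 and 1.45 in hPSC, and 3.08 and 3.37 in WT PP. In both lists the members of lowest GC stood furthest above short-exon peaks, and in WT PP the sign changed along the GC scale. The sign also changed in PP, from 0.17 at 35% to 40% GC to -0.09 at 60% to 65%. In A5-KO PP the difference was 0.59 at 35% to 40%, -0.18 at 55% to 60% and 0.07 at 60% to 65%. In DE and hILO members stood above short-exon peaks in each GC range.

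Whether members carry over from stage to stage was asked with an overlap limit of 50%, which the study also used for inheritance. Here a peak is shared when peaks on the same strand of the other list cover over 50% of the nt it has in exons, and the study's further limit on transcript level was not applied. Of DE members 80.8% were shared with hPSC (79.5 to 82.1), against 68.4% of all DE peaks. Of PP members 62.1% were shared with DE, against 59.6% of all PP peaks. Of hILO members 63.1% were shared with PP, against 47.1% of all hILO peaks. Peaks of short exons were shared less in each step, at 50.9%, 44.7% and 29.2%. Peaks within 200 nt of the stop codon stood at 75.0%, 75.1% and 53.8%, and those further into the 3′ UTR at 64.1%, 66.0% and 43.5%. Members thus had the highest share of these classes from hPSC to DE and from PP to hILO, and a lower share than the stop codon and 3′ UTR peaks from DE to PP.

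Seen from the earlier list, 53.4% of hPSC members were shared with DE, against 55.2% of all hPSC peaks. Of DE members 60.7% were shared with PP, against 50.0% of all DE peaks. Of PP members 64.2% were shared with hILO, against 63.2% of all PP peaks. Stop codon peaks stood at 68.8%, 56.1% and 76.5% in these steps and 3′ UTR peaks at 59.0%, 43.8% and 69.2%, so that in this direction members were below both classes in hPSC and PP and above both in DE. Among peaks with 50 or more input reads the members of hPSC stood at 61.5% against 61.3% of all peaks, those of DE at 64.1% against 52.8% and those of PP at 68.7% against 65.5%. Lists differ in size and depth, with 4366 members in hPSC and 3550 in DE. Of A5-KO PP members 73.0% were shared with WT PP (71.7 to 74.2), against 55.2% of all A5-KO PP peaks, 68.2% of its stop codon peaks, 65.8% of its 3′ UTR peaks and 20.5% of its short-exon peaks. WT PP peaks covered 54.6% of the bases of the A5-KO PP member exons and 16.7% of those of the short exons with an A5-KO PP peak. In the other direction 64.5% of WT PP members were shared with A5-KO PP, against 51.2% of all WT PP peaks.

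Members also recurred across the 2 batches, where antibody, RNA selection and library kit all differed. Of the members of hPSC, DE, PP and hILO, 74.6%, 79.8%, 80.7% and 77.9% were shared with WT PP, against 58.0%, 60.6%, 62.5% and 54.3% of all peaks. Peaks near the stop codon recurred less often than members and more often than all peaks, at 68.3%, 69.4%, 74.9% and 65.0%. The 3′ UTR peaks stood at 61.1%, 62.2%, 69.3% and 57.8%. Short-exon peaks were lowest, at 20.2%, 21.4%, 22.1% and 17.0%, and peaks of exons of 200 to under 400 nt, at 41.4%, 42.6%, 39.7% and 32.5%, also lay below all peaks. WT PP peaks covered 57.5%, 61.2%, 63.0% and 60.7% of the bases of those same member exons, so the overlap stands beside a wide cover of these exons in WT PP. In short exons that held a stage peak, WT PP peaks covered 15.5% to 19.9% of bases. In the reverse direction the WT PP members shared with hPSC, DE, PP and hILO were 47.6%, 33.0%, 31.7% and 31.9%, against 35.5%, 29.9%, 24.7% and 30.4% of all WT PP peaks and 46.2%, 43.3%, 33.3% and 44.5% of its stop codon peaks.

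Members shared by consecutive stages differed little in enrichment. Over 2869 shared pairs DE stood at a median log2 difference of -0.10 from hPSC, PP over 2260 at -0.20 from DE and hILO over 1969 at -0.07 from PP, beside -0.11, -0.13 and -0.11 over all shared pairs. Where both lists had 50 or more input reads, 1.35% of 1701 member pairs were at least 2-fold higher in DE than in hPSC and 3.17% at least 2-fold lower, against 1.86% and 3.72% of all pairs. From DE to PP 2.79% of 1361 were higher and 5.58% lower, against 4.15% and 6.28%. From PP to hILO 3.53% of 1387 were higher and 9.37% lower, against 3.04% and 8.96%. At 45% to 55% GC and the same input, 3.20% of members were higher from DE to PP, against 3.07% of all pairs.

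Members found in 1 stage and overlapped by no peak of the other 3 formed a smaller share than among all placed peaks. hPSC had 840 of them (19.2% of members, against 21.1% of all placed peaks), DE 261 (7.35% against 12.8%), PP 372 (10.2% against 15.4%) and hILO 301 (9.65% against 21.1%). Most lay on genes with other peaks in those stages: the gene had no peak at all in the other 3 stages for 117, 27, 17 and 90 of them. Their input was lower than that of the rest, with a median of 42.0 against 94.0 reads in hPSC and 51.0 against 102 in DE. The medians were 66.0 against 103 in PP and 256 against 291 in hILO, where they lay closer. The role of depth in these calls was not tested.

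In hPSC the stage-alone members with the highest enrichment were on TNS1 (exon 19), which encodes tensin of focal adhesions, SLC24A1 (exon 2), a sodium, potassium and calcium exchanger, and C6orf132 (exon 4). TNS1 had 5729 IP reads over 247 input reads, a log2 enrichment of 2.92. SLC24A1 had 2458 over 115 (2.86) and C6orf132 8017 over 399 (2.77). All 3 genes carried other peaks in the other stages, 4, 13 and 3 in number, and each of these members was covered in WT PP. These are thus sites listed in 1 stage on transcripts that had peaks in at least 1 other stage.

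In DE the corresponding members lay on HECW1 (exon 11), a ubiquitin ligase, RALGAPA1 (exon 34), a GTPase-activating subunit for Ral, and MXRA5 (exon 5). HECW1 had 5493 IP over 1221 input reads (log2 2.84), RALGAPA1 1670 over 488 (2.77) and MXRA5 904 over 228 (2.59). In PP they lay on SMG8 (exon 4), a regulator of the nonsense-mediated decay kinase SMG1, ZNF654 (exon 8) and SRGAP2 (exon 2). SMG8 had 798 over 122 (2.98), ZNF654 700 over 105 (2.88) and SRGAP2 501 over 68 (2.84). SRGAP2 has near-identical copies in the genome, so its reads may be split and its value is uncertain.

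In hILO they lay on KLHL28 (exon 2), a kelch family protein, MIA2 (exon 4), of protein export from the endoplasmic reticulum, and THAP4 (exon 2). KLHL28 had 1203 IP over 206 input reads (log2 2.83), MIA2 308 over 57 (2.79) and THAP4 608 over 95 (2.77). The members named here for PP and hILO were 50 to 100 nt long. KLHL28 and THAP4 carried 13 and 8 other peaks in the other stages. None of the members named here fell on a gene of the pancreatic regulator list given below. Only 3 of the 30 genes on that list have a long internal coding exon, so the others could not hold a member.

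A position shared by all 6 lists was found for 1524 hPSC members (34.9%), of which 436 had at least 50 input reads in each. PARP8, a protein of the ADP-ribosyltransferase family, led by median enrichment, with log2 values of 2.39, 2.83, 3.75, 2.46, 6.17 and 3.43. Its input ran from 86 to 520 reads. ARHGAP21, a GTPase-activating protein, had 1.19, 3.21, 2.70, 1.31, 4.92 and 4.26. The ARHGAP21 site was thus low in hPSC and hILO and high in DE and PP, while the PARP8 site was highest of the stages in PP.

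ZFC3H1, a factor that targets nuclear RNA to the exosome, had log2 values of 2.89, 2.34, 2.39 and 2.50 over the stages, then 4.79 and 3.28 in batch 2. HAUS6, a subunit of the augmin complex of the spindle, had 2.68, 2.33, 2.70, 1.11, 5.57 and 4.96. C5orf15 had 2.58, 2.77, 2.59, 0.90, 5.95 and 6.55. HAUS6 and C5orf15 were near-constant over hPSC, DE and PP and lower in hILO, and the hILO list as a whole had the lowest member median.

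The genes with the most members over the 4 stages were KMT2D with 59, VCAN with 56, MKI67 with 56, FAT1 with 52, SPEN with 51, CENPF with 48, KMT2C with 47, ALMS1 with 45, KMT2A with 43 and BOD1L1 with 41. KMT2D, KMT2C and KMT2A are histone H3 lysine 4 methyltransferases, VCAN is the matrix proteoglycan versican, MKI67 is the proliferation marker Ki-67, and FAT1 is a large cadherin. KMT2D had 18, 15, 14, 12, 12 and 17 members. VCAN had 13, 12, 17 and 14 over the stages and fewer in batch 2, with 4 and 5. Each of the 10 genes has an internal coding exon of 1884 nt or more.

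Among the 5 longest exons with a member in all lists, cover differed widely. Exon 326 of TTN, the giant muscle protein titin, is 17106 nt long (chr2:178559311-178576416, minus strand, GRCh38) and had 1, 2, 1, 1, 26 and 29 members. Peaks covered 1.22%, 1.75%, 0.637% and 0.491% of it in the stages, and 73.4% and 55.2% in batch 2. The median input of a member there was 10.0, 9.50, 9.00, 209, 92.5 and 38.0 reads. Batch and cells cannot be told apart here.

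MAP1A exon 5 (8185 nt), of a microtubule-associated protein of neurons, had 7.33%, 7.33%, 4.28%, 33.6%, 62.0% and 37.3% of its bases covered. The median input per member there was 6.00, 23.0, 7.00, 138, 59.0 and 34.5 reads. MKI67 exon 13 (6845 nt) was covered broadly, at 61.4%, 73.4%, 44.6% and 54.4% over the stages and 56.0% and 47.5% in batch 2. SPEN exon 11 (8176 nt), of a transcriptional repressor, had 33.6%, 31.5%, 26.0%, 38.5%, 53.2% and 37.9%. SRRM2 exon 11 (6701 nt), of a spliceosome scaffold, had 15.3%, 9.70%, 13.1%, 32.4%, 13.8% and 15.3%, although its members held between 4096 and 17891 input reads. SRRM2 was covered less than MKI67 in all lists, also in DE, PP and hILO, where its members held more input reads.

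Gene groups whose members are known for long exons were listed by function; the lists were drawn up with such exons in view, so their counts describe and do not test. All 32 chromatin regulators carried a member in at least 1 list and 28 in all 6. Among those with a peak near the stop codon or in the 3′ UTR of the list, 20 of 20 carried a member in hPSC, 23 of 23 in DE, 20 of 20 in PP, 21 of 21 in hILO, 26 of 26 in WT PP and 23 of 24 in A5-KO PP. Over all genes with a long internal exon these shares were 75.3%, 67.6%, 68.9%, 64.0%, 78.1% and 76.5%. SETD2, the H3 lysine 36 methyltransferase, had 9, 7, 9, 8, 10 and 11 members, and EP400, an ATPase of a chromatin-remodelling complex, 1 in every list.

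Of 20 genes of DNA repair and genome stability, 18 have a long internal exon, all of these carried a member in some list and 13 in all 6. Of all 3575 genes with such an exon, 2682 carried a member in some list and 1098 in all 6, and the counts of the groups below are to be read beside these. MSH6, which recognises mismatches, had 4, 3, 5 and 4 members over the stages and 4 in each batch 2 list, with a top log2 enrichment of 2.71 in hPSC. FANCM, a helicase of crosslink repair, had 2, 1, 2, 1, 4 and 5. Of 20 genes of mitosis and the centrosome, 16 have such an exon, all carried a member and 14 did so in every list. CENPF, a kinetochore protein, had 11, 12, 14, 11, 7 and 14 members. Of 12 RNA processing genes 9 have a long exon, 9 carried a member and 7 did so in all 6 lists.

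Transcripts of the m6A machinery itself carried members. Of 19 m6A factors, 8 have a long internal exon, and all 8 carried a member in some list, 5 of them in all 6, beside 2682 and 1098 of 3575 genes in general. ZC3H13, a subunit of the writer complex, had 5, 6, 4 and 2 members over the stages, with a highest log2 enrichment of 2.77, 2.73, 2.69 and 2.51. VIRMA, the scaffold of the same complex, had 5, 4, 5 and 3, with 2.24, 2.19, 2.29 and 2.26. METTL3, the catalytic subunit, had 1 member in every list except PP, on an exon of 405 nt close to the limit.

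Among the readers, YTHDF2, which promotes decay of methylated mRNA, had 2, 2, 3 and 2 members over the stages, and YTHDF1 3, 3, 2 and 2. YTHDC1, the nuclear reader, had 1 at each stage, on an exon of 424 nt. YTHDF3 had 1, 1, 4 and 1. FTO, a demethylase, had a member in PP (2), WT PP (1) and A5-KO PP (1) and in no other list. ALKBH5 has no long internal coding exon and was not among the members.

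Few regulators of pancreatic and earlier fates have such exons. Of 30 genes on that list 3 have a long internal coding exon, beside 3575 of 19702 protein-coding genes. A member was carried by 2 of the 3, beside 2682 of 3575 genes in general. With 3 genes, these counts say little about the regulators as a group. RFX6, a transcription factor of endocrine cells, had 1 member in exon 17 (513 nt) in each of PP, hILO, WT PP and A5-KO PP and none in hPSC or DE, with log2 enrichments of 2.44, 1.47, 2.80 and 2.05. GATA6, of endoderm and pancreas, had 1 member in DE (log2 1.52, 1363 input reads). GATA4 had none in any list.

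Of 20 zinc finger and homeobox regulators, 14 have a long exon, all carried a member and 6 did so in all lists. ZFHX3, a large homeobox factor, had 3, 4, 11 and 12 members over the stages. ZEB2 had 1 in each of PP and hILO and none elsewhere. Of 18 genes of cytoskeleton and scaffolds, 16 have a long exon, 15 carried a member and 11 did so in all 6. Of 20 adhesion and receptor genes, 16 have a long exon, 13 carried a member and 4 did so in all lists, beside 2682 and 1098 of 3575 genes in general. In PP 4 of the 12 of these genes used had a member (33.3%) and in hILO 5 of 12 (41.7%), against 68.9% and 64.0% of all genes with such an exon, while the other lists stood at 58.3% (DE) to 84.6% (WT PP).

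ALKBH5 removes m6A, and the comparison of A5-KO PP with WT PP asks where members gain or lose enrichment without it. Over 3664 shared member pairs, 1212 (33.1%) were at least 2-fold higher in A5-KO PP and 1052 (28.7%) at least 2-fold lower, against 36.7% and 28.3% of all shared pairs. Several A5-KO PP peaks can be paired with the same WT PP peak, so the pairs are not separate WT PP peaks. The balance depended on input. Pairs with no input read in at least 1 list, 747 in number, had a median log2 difference of 1.84, and the median fell to 0.38, 0.16, 0.05 and -0.03 as the lower input of the pair went from 1 to under 10, 10 to under 50, 50 to under 200 and 200 or more reads.

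Where both lists had 50 or more input reads, 1685 pairs had a median log2 difference of -0.00. Of these 339 (20.1%) were at least 2-fold higher in A5-KO PP, against 22.4% of all shared pairs, and 368 (21.8%) were at least 2-fold lower, against 21.1%. Members thus differed in both directions in like numbers and near the rate of all peaks. Pairs with a 2-fold difference were more frequent than between the stages of batch 1, a difference that cannot be told apart from that between the batches. With 1 pooled list per genotype, no spread between libraries is available against which to set these differences.

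The largest rises in log2 enrichment were on MYO9B (exon 22), a myosin with a GTPase-activating domain, NCOA4 (exon 8), the cargo receptor for ferritin, and MYO10 (exon 25), the myosin of filopodia. MYO9B went from 1.00 to 6.79, with 301 IP over 572 input reads in WT PP and 1034 over 51 in A5-KO PP. NCOA4 went from 3.28 to 8.28, with input of 944 and 59 reads. MYO10 went from 1.82 to 6.81, with input of 262 and 68. The differences, with the standard error from read counts alone, were 5.79 ± 0.23, 4.99 ± 0.20 and 4.99 ± 0.22 for the 3 genes. In all 3 the input was lower in A5-KO PP, and the rise combined more IP reads with fewer input reads. Reads were counted in each list's own peak. The peaks of a pair can differ in width, so their counts are not changes over 1 fixed region.

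The largest falls were on BLTP3A (exon 14), a lipid transfer protein, TRPM7 (exon 26), an ion channel with a kinase domain, and DST (exon 40), the cytolinker dystonin. BLTP3A fell from 6.78 to 1.31, with 5249 IP over 271 input reads in WT PP and 113 over 252 in A5-KO PP. TRPM7 fell from 7.54 to 2.56, with 51041 over 2298 and 163 over 212. DST fell from 6.86 to 2.07, with 1862 over 137 and 82 over 74. The differences were -5.47 ± 0.19, -4.98 ± 0.15 and -4.79 ± 0.26. For BLTP3A the input was alike in both lists, so the fall lay in the IP reads. For TRPM7 the A5-KO PP peak held fewer input reads as well, again counted in each list's own peak.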

How the data were processed

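m6A-seq and input reads of 24 libraries (2 IP and 2 input per population) were trimmed by the authors with fastp, aligned to GRCh38 with HISAT2, and peaks were called with exomePeak2 on the libraries of each population together, per the study's methods and the submitters' processing notes. The deposited lists give pooled read counts of IP and input, whether summed or averaged not being stated, a log2 enrichment with a GC-dependent offset, and p-values. The authors' stated p-value limit of 1e-05 was met by 54.1% to 94.3% of the peaks of a list. The lists were normalised separately. Peaks were placed on GENCODE 44 isoforms (GRCh38) with Python 3.11.15, numpy 2.4.6 and pandas 2.3.3, after the code was tested on simulated peaks. Shares have Wilson 95% intervals; no test was run, since values per library were not analysed here. Depth per list was 30723097 to 79822815 IP and 6987612 to 28463998 input reads in peaks; intervals cover counting error only. A 2-fold change means a difference of 1 in log2 enrichment. Members, gene lists and printed sequences were chosen with earlier results of these data known: the named genes are the members of the gene lists, the 10 genes with most members, the 6 loci of all lists with the highest median enrichment (1 of them is not reported here), the 3 most enriched members alone in each stage, the 3 largest rises and falls in A5-KO PP and the 5 longest exons, with at least 50 input reads required for loci, stage-alone members and pairs. The central 150 nt of peaks over 300 nt were printed, a choice made after their values were seen. Alternatives tried were other isoforms, p and fold limits, exon and stop-codon limits, input and GC limits, overlaps and pseudocounts of 1 and 8.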

Additional observations from a re-analysis of the deposited data

How the results depend on the processing

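No paired analysis was possible because each population has 1 list pooled over its libraries, so neither a replicate block nor leaving out a replicate could be run; depth limits members without input reads. The following lowest and highest values over the 6 lists moved; the cause was not tested. Members per list (3120 in hILO to 5021 in A5-KO PP) numbered at most 3017 (hPSC) at p below 1e-05. They numbered 1295 (DE) to 2151 (hILO) at p below 1e-10, where hILO went from fewest to most. With IP/input of at least 3 they numbered at least 1484 (hILO). Their share of placed peaks (12.5% to 15.8%) was 13.0% to 16.4% on the isoform with the longest CDS, at most 16.7% (hPSC) at p below 1e-10, 13.0% (WT PP) to 16.3% for peaks in 1 exon, at most 16.5% (hPSC) with at least 50 input reads, 10.2% to 12.7% for exons of 600 nt or more and 12.1% to 15.2% over 400 nt before the stop codon. The density ratio of long to short exons (2.71 to 5.55) was 2.28 to 4.20 over genes with any peak and 6.02 (A5-KO PP) to 10.8 for peaks in 1 exon. Exons with a member (59.1% in hILO to 74.4% in WT PP) were 34.4% (DE) to 46.5% (hILO) at p below 1e-10, where hILO went from lowest to highest. The midpoint ratio (1.24 to 4.08) was 3.15 to 10.8 for peaks in 1 exon and 0.496 to 1.55 for peaks of at most 150 nt, below 1 in every list except hPSC. The difference in median log2 enrichment from short-exon peaks (-0.28 to 0.19) was -0.13 to 0.35 from counts with a pseudocount of 1, -0.02 to 0.32 with 8, -0.02 to 0.23 with at least 50 input reads, and at most 0.22 at 45% to 55% GC. The DRACH ratio (1.30 to 1.32) was up to 1.53 for GGAC, at least 1.27 for peaks in 1 exon, and turned to 0.873 to 0.969 on the opposite strand, which was searched as a control. Sharing with the previous stage (62.1% to 80.8%) was 70.2% to 86.1% for any overlap, 44.4% to 53.9% for more than 50% of both peaks and up to 84.2% with at least 50 input reads. Member pairs at least 2-fold higher and lower in A5-KO PP (1212 and 1052) were 339 and 368 with at least 50 input reads in both, and 806 and 622 for more than 50% of both peaks. The other 32 values stayed within the spread allowed.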
